A study of Homo sapiens with 6 samples.

Results

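The growth factor receptor tyrosine kinases described here were 10 genes, taken by symbol from the count matrix. They comprised EGFR, ERBB2 and ERBB3 of the ERBB family, INSR and IGF1R of the insulin receptor family, FGFR1, FGFR2, FGFR3 and FGFR4 of the fibroblast growth factor (FGF) receptor family, and MET, the receptor for hepatocyte growth factor (HGF). The matrix held 35322 gene symbols, of which 16510 had enough counts to be tested, and 9 of the 10 receptors were among them. The RNA came from 22Rv1, an established human prostate carcinoma cell line, and was sequenced in 6 libraries. Control cells, with the genotype given as WT, provided 2 libraries, and ZM11-kd1 and ZM11-kd2, both given as ZMYND11 knockdown, provided 2 each. ZMYND11 is a chromatin reader of histone H3.3 trimethylated on lysine 36. All cells grew in serum-containing RPMI1640 with no treatment, and no ligand, inhibitor or time course was applied. The methods describe stable knockdown by lentiviral pLKO.1 shRNA under puromycin. The study describes its sequenced control cells as carrying control shRNAs, whereas the labels give them only as WT. Which ZMYND11 shRNA each knockdown carried is not given in the sources used here. Nothing says that the libraries of a group came from separate cultures, so the p-values measure only the spread between these libraries, which may be technical.

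A receptor tyrosine kinase spans the plasma membrane, signals as a pair and, when a ligand binds, phosphorylates tyrosines on its own tail. Adaptors such as GRB2 dock there and pass the signal to RAS and ERK, which drive division, and to PI3K and AKT, which drive growth and survival. ERBB2 has no known ligand of its own and ERBB3 has little kinase activity, so both signal mainly in pairs with other ERBB receptors. In the prostate, HGF is classically a product of stromal cells that acts on MET of epithelial cells, whereas insulin-like and epidermal growth factors support the growth of prostate carcinoma cells in culture.

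The targeted gene was lower in both knockdowns. ZMYND11 counts were 4283 and 4179 in control, 941 and 773 in ZM11-kd1 and 770 and 779 in ZM11-kd2, with no overlap between knockdown and control on the normalized scale. The libraries held between 26844128 and 38193748 counts, and each of the 6 was nearest to the other library of its own group. All 9 prostate luminal markers, KLK3 included, exceeded 1 CPM in every library, where CPM is the count per 1000000 counts after edgeR's TMM normalization. The summed luminal markers ranged from 2802 to 2825 CPM in control, from 3688 to 3719 in ZM11-kd1 and from 4077 to 4091 in ZM11-kd2. None of the 3 basal, 4 endothelial or 5 leukocyte markers exceeded 1 CPM in every library, and each of these sums was at most 1.58 CPM. The 6 fibroblast markers summed to between 33.2 and 35.9 CPM in control, 86.6 and 87.2 in ZM11-kd1 and 44.3 and 44.7 in ZM11-kd2, mostly COL1A1. Their part in the results below was not tested. In bulk RNA, fewer cells of a type and less RNA per cell cannot be told apart.

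All 9 tested receptors differed from control in both knockdowns, and most were lower. In ZM11-kd1, ERBB2 and FGFR1 were higher and the other 7 lower, whereas in ZM11-kd2 only ERBB2 was higher and the other 8, with FGFR1, lower. The median log2 fold change of the receptors was -1.90 in ZM11-kd1 and -1.05 in ZM11-kd2, against -0.03 in each knockdown over all genes tested. These counts have to be read against a broad background. At an adjusted p under 0.05 in edgeR's quasi-likelihood test, 78.0% of all genes tested were called in ZM11-kd1, with 38.2% higher and 39.8% lower, and 73.4% in ZM11-kd2, with 36.5% higher and 36.9% lower. Of the 9 receptors, 7 were called lower in both knockdowns, as were 27.0% of all genes tested, and 1 (ERBB2) was higher in both, as were 25.6%. FGFR1 was called in opposite directions, as were 9.10% of all genes tested. When a change of at least 1.5-fold was also required, all 9 remained in ZM11-kd1, where 59.7% of genes met that rule, and 8 in ZM11-kd2, where 51.1% did. FGFR1 in ZM11-kd2 was the receptor lost. With libraries scaled by their totals alone the median over all genes moved to -0.38 in ZM11-kd1 and -0.20 in ZM11-kd2, and the share of calls that were higher went from 49.0% to 35.3% and from 49.8% to 40.8%. The receptors kept 2 higher and 7 lower in ZM11-kd1 and 1 higher and 8 lower in ZM11-kd2 under that scaling. Both knockdowns were compared with the same control libraries, so their calls are not independent.

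**Figure D1:**
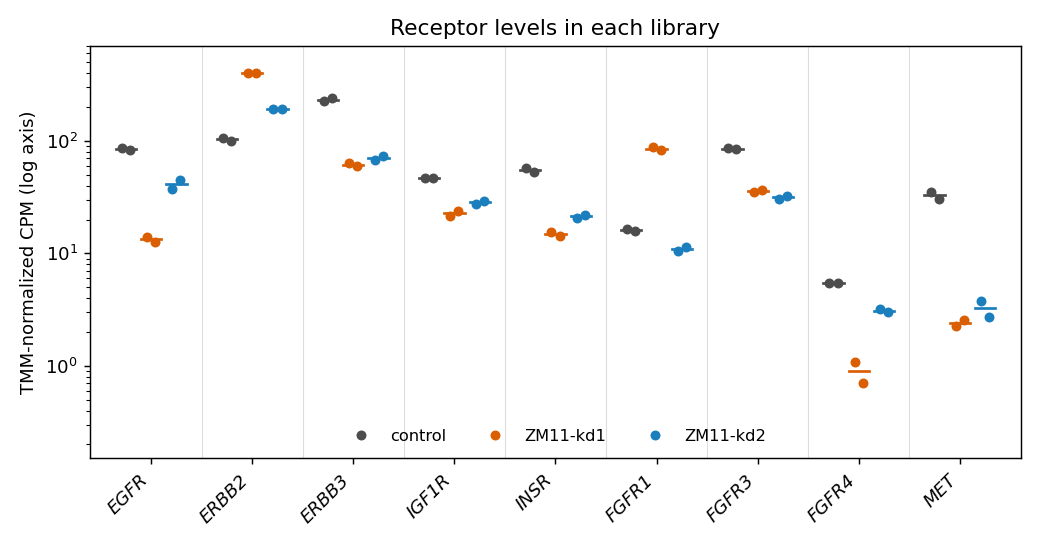
TMM-normalized CPM (log axis) of the 9 tested receptors in each of the 6 libraries, with points for libraries and short lines for the mean of 2 libraries. ERBB2 was above control in both knockdowns, FGFR1 above it in ZM11-kd1 only, and MET fell from over 30 CPM to under 4 CPM in all 4 knockdown libraries.

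Within the ERBB family, ERBB2 rose in both knockdowns while EGFR and ERBB3 fell. EGFR, the receptor for EGF and TGF-alpha, lies at chr7:55019017-55211628 (plus strand, GRCh38). It was at 87.2 and 83.3 CPM in control, 13.9 and 12.7 in ZM11-kd1 and 37.1 and 45.3 in ZM11-kd2. The 3 groups did not overlap, and both ZM11-kd2 libraries lay between control and ZM11-kd1. The log2 fold change of EGFR was -2.68 (standard error 0.10, adjusted p = 5.45e-12, edgeR) in ZM11-kd1 and -1.05 (standard error 0.09, adjusted p = 4.98e-08) in ZM11-kd2, a fall of 6.39-fold and 2.07-fold. Over the alternative settings it ranged from -3.03 to -2.04 in ZM11-kd1 and from -1.22 to -0.65 in ZM11-kd2. EGFR-AS1, which shares 186 exonic bases with EGFR on the opposite strand, had at most 5 counts in any library.

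ERBB2, the ligandless ERBB receptor, lies at chr17:39687914-39730426 (plus strand). Its level was 106 and 100.3 CPM in control, 402.5 and 398 in ZM11-kd1, and 194 and 194 in ZM11-kd2. Every knockdown library was above both control libraries, and ZM11-kd1 was above ZM11-kd2. The log2 fold change was 1.96 (standard error 0.05, adjusted p = 3.53e-13, edgeR) in ZM11-kd1 and 0.91 (standard error 0.05, adjusted p = 1.08e-09) in ZM11-kd2. ERBB2 shares exonic bases with genes on the opposite strand on each side, 144 with PGAP3 and 571 with MIEN1, and the use of strand in counting is not given in the sources used here. MIEN1 had log2 fold changes of 1.96 and 0.71 in the same order, and PGAP3 of 1.00 and -0.43. MIEN1 held 537 to 2379 counts per library and PGAP3 775 to 1937, whereas ERBB2 held 3114 to 13675, and the part of shared reads in the result was not tested.

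ERBB3, the kinase-poor partner of ERBB2 that binds neuregulins, lies at chr12:56076799-56103505 (plus strand). It was at 226 and 239 CPM in control, 63.3 and 60.2 in ZM11-kd1 and 67.1 and 74.2 in ZM11-kd2. All 4 knockdown libraries were below both controls. The fall was similar in size in both knockdowns, with log2 fold changes of -1.91 (standard error 0.06, adjusted p = 2.46e-12, edgeR) and -1.72 (standard error 0.06, adjusted p = 1.03e-11). ERBB4, the remaining family member, named after its values were seen, had log2 fold changes of -0.12 in ZM11-kd1 (adjusted p = 0.271, edgeR) and 1.00 in ZM11-kd2, where it rose.

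Both insulin family receptors were lower in both knockdowns. INSR, the insulin receptor, lies at chr19:7112255-7294414 (minus strand) and was at 58.0 and 52.5 CPM in control, 15.4 and 14.2 in ZM11-kd1 and 20.7 and 21.9 in ZM11-kd2. IGF1R, the main receptor for IGF1 and IGF2, lies at chr15:98648539-98964530 (plus strand) and was at 46.7 and 47.1 CPM in control, 21.6 and 23.7 in ZM11-kd1 and 27.6 and 29.5 in ZM11-kd2. For each gene the 3 groups did not overlap, with control highest and ZM11-kd1 lowest. The log2 fold change of INSR was -1.90 (standard error 0.09, adjusted p = 4.65e-11, edgeR) in ZM11-kd1 and -1.38 (standard error 0.08, adjusted p = 1.48e-09) in ZM11-kd2. For IGF1R it was -1.05 (standard error 0.08, adjusted p = 1.11e-08, edgeR) and -0.72 (standard error 0.08, adjusted p = 8.12e-07). After adjustment for the GC content and length of genes the log2 fold change of IGF1R was -0.56 in ZM11-kd1 and -0.37 in ZM11-kd2, still called in both.

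The FGF receptors divided by gene and by knockdown. FGFR1, on the minus strand of chromosome 8, is the receptor most often linked to mesenchymal cells. It was at 16.4 and 15.8 CPM in control, 87.6 and 83.6 in ZM11-kd1 and 10.4 and 11.3 in ZM11-kd2. ZM11-kd1 stood above the other groups and ZM11-kd2 below control, with no overlap. The log2 fold change was 2.41 (standard error 0.08, adjusted p = 1.46e-12, edgeR) in ZM11-kd1 and -0.56 (standard error 0.09, adjusted p = 3.24e-05) in ZM11-kd2. After adjustment for the GC content and length of genes the latter was -0.14 with an adjusted p of 0.118 (edgeR), whereas the rise in ZM11-kd1 was called under all settings. LETM2, which shares 138 exonic bases with FGFR1 on the opposite strand, had 212 to 290 counts per library, against 2977 and 2475 of FGFR1 in ZM11-kd1.

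FGFR3, at chr4:1793293-1808872 (plus strand), binds FGF1 and FGF9 among others. It was at 86.4 and 84.0 CPM in control, 35.1 and 36.4 in ZM11-kd1 and 30.2 and 32.6 in ZM11-kd2. All knockdown libraries were below both controls, with log2 fold changes of -1.25 (standard error 0.07, adjusted p = 2.74e-10, edgeR) and -1.44 (standard error 0.07, adjusted p = 1.18e-10). FGFR4, the receptor for FGF19, a gut hormone that restrains bile acid synthesis, lies at chr5:177086905-177098144 (plus strand). Its counts were low, at 165 and 169 in control, 37 and 21 in ZM11-kd1 and 114 and 103 in ZM11-kd2. In CPM the groups did not overlap, and the log2 fold change was -2.57 (standard error 0.24, adjusted p = 1.25e-07, edgeR) in ZM11-kd1 and -0.81 (standard error 0.20, adjusted p = 0.0018) in ZM11-kd2. FGFR2, the epithelial receptor for FGF7 and FGF10, lies at chr10:121478332-121598458 (minus strand). It had 5 and 3 counts in control, 3 and 0 in ZM11-kd1 and 3 and 2 in ZM11-kd2. It was therefore not tested, and a difference in it was not detectable at this depth.

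MET showed the largest fall of the 9 tested receptors in both knockdowns, while HGF, its ligand, rose. MET lies at chr7:116672196-116798377 (plus strand). It was at 35.2 and 30.8 CPM in control, 2.27 and 2.53 in ZM11-kd1 and 3.81 and 2.71 in ZM11-kd2. The control libraries held 1070 and 955 counts, and the knockdown libraries between 75 and 136. The log2 fold change of MET was -3.78 (standard error 0.15, adjusted p = 1.76e-11, edgeR) in ZM11-kd1 and -3.33 (standard error 0.15, adjusted p = 6.12e-11) in ZM11-kd2, a fall of 13.7-fold and 10.1-fold. HGF was at 303 and 309.5 CPM in control, 1636 and 1592 in ZM11-kd1 and 1178 and 1161 in ZM11-kd2. Every knockdown library was above both controls, and the log2 fold change of HGF was 2.40 (standard error 0.05, adjusted p = 4.24e-14, edgeR) in ZM11-kd1 and 1.93 (standard error 0.05, adjusted p = 4.59e-13) in ZM11-kd2. The ratio of HGF to MET counts, which the scaling of libraries cannot move, was 8.61 and 10.1 in control, 722 and 628 in ZM11-kd1 and 309 and 428 in ZM11-kd2. With 2 libraries against 2, an exact permutation test of a ratio cannot go below p = 0.333, so such ratios are given without a test.

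The letters before the RefSeq start are shown for MET and EGFR, the receptors on chromosome 7 that fell, and for HGF, the ligand on that chromosome that rose. Each run is the 250 bases before the RefSeq start on GRCh38.p14, on the strand of the gene, with GC boxes (GGGCGG on either strand) in capitals. The MET run is chr7:116671946-116672195 on the plus strand, the EGFR run chr7:55018767-55019016 on the plus strand and the HGF run chr7:81770048-81770297 on the minus strand.
MET: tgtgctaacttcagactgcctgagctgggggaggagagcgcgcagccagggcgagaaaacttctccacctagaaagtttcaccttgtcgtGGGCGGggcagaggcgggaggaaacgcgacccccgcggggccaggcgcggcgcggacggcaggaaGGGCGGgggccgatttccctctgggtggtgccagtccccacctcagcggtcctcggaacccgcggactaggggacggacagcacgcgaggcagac
EGFR: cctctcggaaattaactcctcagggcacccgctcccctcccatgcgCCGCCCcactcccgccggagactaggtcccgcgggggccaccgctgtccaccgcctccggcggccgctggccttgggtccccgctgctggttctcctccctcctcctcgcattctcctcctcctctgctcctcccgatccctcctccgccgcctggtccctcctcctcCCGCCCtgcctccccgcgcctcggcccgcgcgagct
HGF: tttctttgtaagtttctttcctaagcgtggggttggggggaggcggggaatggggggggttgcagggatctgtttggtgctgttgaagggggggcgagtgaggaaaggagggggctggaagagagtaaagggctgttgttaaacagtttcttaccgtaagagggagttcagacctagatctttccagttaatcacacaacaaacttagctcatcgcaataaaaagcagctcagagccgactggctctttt
The MET and EGFR runs held 2 GC boxes each at 68.4% and 73.6% G and C, and the HGF run held none at 50%. The other motifs searched, on both strands, were the CCAAT box, spelled CCAAT, and the TATA box, spelled TATAAA. An E-box spelled CACGTG was searched too. The AP-1 site was spelled TGA, any base, then TCA. None of these 4 motifs stood in the MET, EGFR or HGF run. RefSeq windows of 300 bases, reaching 50 bases past the start, were given for 8 of the 10 receptors. A GC box stood in 7 of these 8, and in 45% of 35116 windows of all genes, the median window having 58.7% G and C. The CCAAT box stood in 2 of the 8 and in 34.6% of all windows, the TATA box in 0 of the 8 and in 11.5%, the E-box in 1 (MET) and in 7.26%, and the AP-1 site in 1 (ERBB2) and in 7.71%. These matches describe letters and are not sites shown to be bound.

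The knockdowns differed from each other at most receptors. Against ZM11-kd1, 5 receptors were higher and 3 lower in ZM11-kd2, and 68.8% of all genes tested were called in this comparison, with 34.9% higher and 33.8% lower. FGFR1 differed most, with a log2 fold change of -2.98 (standard error 0.08, adjusted p = 2.18e-12, edgeR), a level 7.88-fold lower in ZM11-kd2. FGFR4 and EGFR were higher in ZM11-kd2 by 1.77 (standard error 0.25, adjusted p = 1.74e-05, edgeR) and 1.63 (standard error 0.10, adjusted p = 2.66e-09) on the log2 scale. ERBB2 was lower in ZM11-kd2 by a log2 fold change of -1.04 (standard error 0.05, adjusted p = 3.22e-10, edgeR). Only these 4 differed by at least 1.5-fold, a rule met by 44.8% of all genes tested. INSR at 0.52 (adjusted p = 0.000107, edgeR) and IGF1R at 0.33 (adjusted p = 0.00173) were also called higher. ERBB3, with 0.19 (adjusted p = 0.0144, edgeR), was not called without ZM11-kd1 replicate 2, at 0.16 with an adjusted p of 0.121, or without ZM11-kd2 replicate 2, at 0.13 with an adjusted p of 0.0614. After adjustment for the GC content and length of genes it was 0.03 with an adjusted p of 0.624 (edgeR). FGFR3, with -0.19 (adjusted p = 0.0261, edgeR), turned to 0.31 after adjustment for the GC content and length of genes, and its call was lost without any one library but ZM11-kd2 replicate 2, at -0.21 to -0.14. MET, at 0.45 (standard error 0.19, adjusted p = 0.0507, edgeR), missed the threshold. It was 0.15 with an adjusted p of 0.501 after adjustment for the GC content and length of genes, 0.17 with an adjusted p of 0.487 without ZM11-kd2 replicate 1, and 0.67 with an adjusted p of 0.003 without ZM11-kd2 replicate 2.

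**Figure D2:**
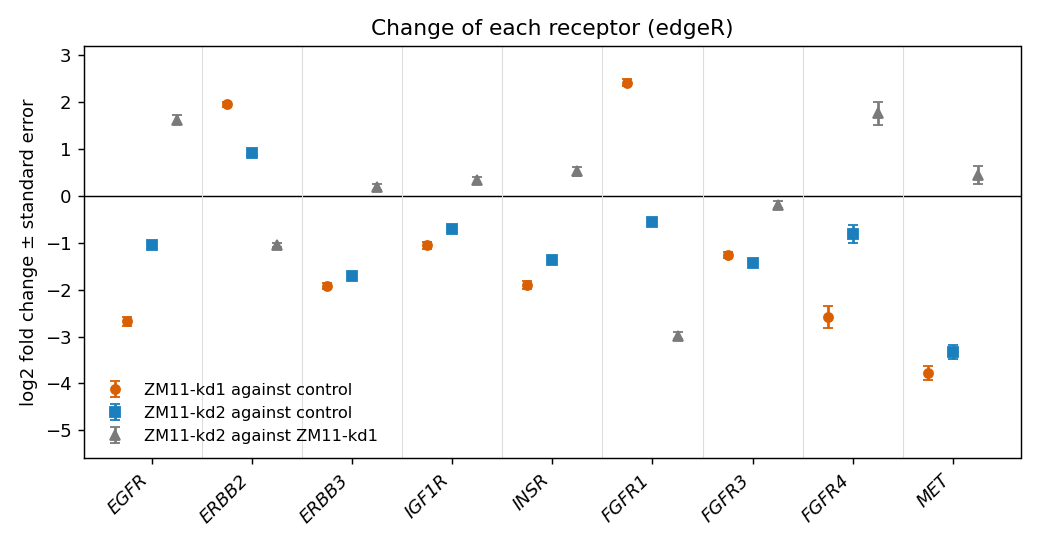
Log2 fold change with standard error of the 9 tested receptors from edgeR, for each knockdown against control and for ZM11-kd2 against ZM11-kd1. ERBB2 lies above 0 and MET lowest in both knockdowns, while FGFR1 lies at 2.41 in ZM11-kd1 and at -0.56 in ZM11-kd2.

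Levels can be compared between genes only per length, and CPM per kilobase of the canonical transcript was used for this. In control cells the order was ERBB3 (41.4 CPM per kilobase), ERBB2 (22.6), FGFR3 (19.8), EGFR (8.61), INSR (5.84), MET (4.83), IGF1R (3.83), FGFR1 (2.82), FGFR4 (1.76) and FGFR2 (0.028), and every neighbour in this order was separated in both libraries. In ZM11-kd1, ERBB2 led at 87.9 CPM per kilobase, followed by FGFR1 at 15 and ERBB3 at 11.0. MET at 0.352 and FGFR4 at 0.291 were not separated there. In ZM11-kd2 the leading receptors were ERBB2 at 42.6, ERBB3 at 12.6 and FGFR3 at 7.31, and IGF1R at 2.33 and INSR at 2.25 were not separated. The 10 receptors together summed to 111.5 ± 0.867 CPM per kilobase (SD, n = 2) in control, 127.6 ± 1.47 (SD, n = 2) in ZM11-kd1 and 74.6 ± 2.05 (SD, n = 2) in ZM11-kd2. The order of control and ZM11-kd1 turned with library totals alone, a setting chosen after the data had been seen, where the sums were 125.9 ± 1.76, 112.6 ± 2.54 and 74.9 ± 3.29 (SD, n = 2 each) in the same order.

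The share of each receptor in that sum cannot be moved by the scaling of libraries. ERBB2 made up 20.3% ± 0.646 of the sum in control, 68.8% ± 0.276 in ZM11-kd1 and 57.1% ± 1.55 in ZM11-kd2 (SD, n = 2 each). ERBB3 went from 37.1% ± 1.75 to 8.61% ± 0.207 and 16.9% ± 0.733 in the same order, and MET from 4.33% ± 0.376 to 0.276% ± 0.0248 and 0.643% ± 0.169. FGFR1 held 2.53% ± 0.0457 in control, 11.8% ± 0.256 in ZM11-kd1 and 2.56% ± 0.0723 in ZM11-kd2. With the union of all annotated exons as the length, a choice made after the data had been seen, ERBB2 held 14.7%, 63.8% and 47.4%, and FGFR3 took the second place in all 3 groups. On that length ERBB3 held 29.25%, 8.67% and 15.21%, and MET 6.72%, 0.547% and 1.14%. FGFR1 held 1.38%, 8.19% and 1.59%, and ranked 4 in ZM11-kd1.

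Ratios of counts within a library showed the same shifts without any scaling. The ratio of ERBB2 to EGFR was 1.22 and 1.2 in control, 28.9 and 31.4 in ZM11-kd1 and 5.23 and 4.28 in ZM11-kd2. ERBB2 to ERBB3 was 0.469 and 0.42 in control, 6.36 and 6.62 in ZM11-kd1 and 2.89 and 2.62 in ZM11-kd2. In each of these ratios all 4 knockdown libraries exceeded both controls. INSR to IGF1R was 1.24 and 1.11 in control and between 0.601 and 0.748 in the knockdown libraries, so INSR counts exceeded those of IGF1R in control only. FGFR1 to FGFR3 was 0.189 and 0.188 in control, 2.49 and 2.3 in ZM11-kd1 and 0.346 in each ZM11-kd2 library.

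Most ligands of the ERBB receptors were lower in ZM11-kd1. Of 11 ERBB ligand genes, 9 were tested, with 1 higher and 8 lower in ZM11-kd1 and 2 higher and 4 lower in ZM11-kd2. With at least 10 counts required in every library, 3 were called in ZM11-kd2. NRG4, at -1.39 in ZM11-kd2 (adjusted p = 0.048, edgeR), was not called in DESeq2 (adjusted p = 0.158), with no filter or with the replicate block. Its call was also lost without any single library, at -1.935 to -0.985. The ZM11-kd2 call of EPGN, at -1.87, was lost without control replicate 1, at -0.98, or ZM11-kd2 replicate 1, at -1.3. In ZM11-kd1, 5 were called with at least 10 counts required in every library and 6 without control replicate 2. EGF was not called in ZM11-kd1 in DESeq2, at -1.39 (adjusted p = 0.0845), or after adjustment for the GC content and length of genes, at -0.92. Its call was also lost without ZM11-kd1 replicate 2, at -0.69, control replicate 1, at -1.33, or control replicate 2, at -1.415. NRG4 was not called in ZM11-kd1 without control replicate 2, at -1.58, or ZM11-kd1 replicate 2, at -1.66. Of all genes tested, 39.8% were lower in ZM11-kd1 and 36.9% in ZM11-kd2. HBEGF, a heparin-binding ligand of EGFR, was at 4.08 and 3.25 CPM in control, 46.5 and 44.9 in ZM11-kd1 and 11.5 and 10.9 in ZM11-kd2. It rose in both, by a log2 fold change of 3.64 (standard error 0.11, adjusted p = 1.35e-12, edgeR) and 1.61 (standard error 0.12, adjusted p = 2.43e-08). Its count was 0.0467 and 0.039 of that of EGFR in control, 3.33 and 3.54 times it in ZM11-kd1 and 0.31 and 0.241 of it in ZM11-kd2. TGFA, which encodes TGF-alpha, fell in ZM11-kd1 (log2 fold change -0.68, adjusted p = 0.00297, edgeR) and rose in ZM11-kd2 (1.68, adjusted p = 1.21e-07). BTC, which encodes betacellulin, fell in both, with log2 fold changes of -1.26 and -1.87. AREG, the amphiregulin gene, fell in ZM11-kd1 at -0.43 (adjusted p = 0.00564, edgeR) and was at 0.05 in ZM11-kd2 (adjusted p = 0.735). Without ZM11-kd1 replicate 1 it was -0.31 in ZM11-kd1 and not called (adjusted p = 0.0778). The remaining tested ERBB ligands, EGF, EREG, EPGN, NRG3 and NRG4, were all under 3 CPM in the mean of every group. EREG had 8 and 9 counts in control and 0 in each knockdown library.

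**Figure D3:**
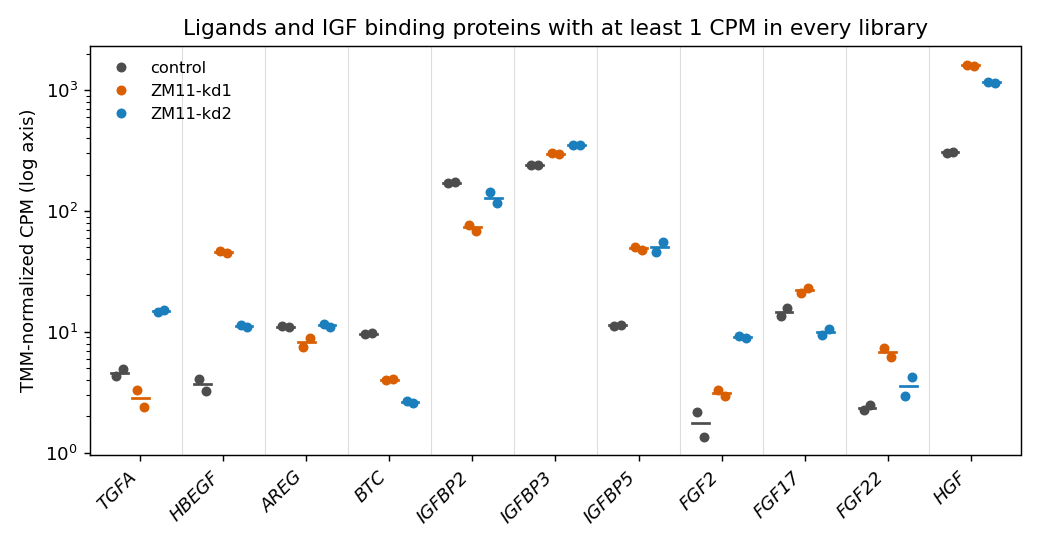
TMM-normalized CPM (log axis) of the 11 ligands and IGF binding proteins with at least 1 CPM in every library, with points for libraries and short lines for group means. HGF has the highest level in the knockdowns and lies between 1161 and 1636 CPM in their 4 libraries, and HBEGF is above control in both knockdowns.

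No insulin or IGF gene had enough counts to be tested, and the tested genes of that list were 5 binding proteins. Of these, 3 were higher and 1 lower in ZM11-kd1 and 2 higher and 2 lower in ZM11-kd2, so that 4 of the 5 were called in each, against 78.0% and 73.4% of all genes tested, and 2 in ZM11-kd2 at 1.5-fold or more, against 51.1%. INS, IGF1 and IGF2 are among the 5 of 10 list genes that were not tested, none of which exceeded 11 counts in a library. IGFBP5, a secreted IGF binding protein, was at 11.2 and 11.3 CPM in control, 50.9 and 47.6 in ZM11-kd1 and 46.0 and 55.4 in ZM11-kd2. It rose by 2.12 (standard error 0.10, adjusted p = 6.29e-11, edgeR) and 2.17 (standard error 0.10, adjusted p = 8.84e-11) on the log2 scale. IGFBP2, which also binds IGFs, fell in both, with log2 fold changes of -1.23 and -0.41. IGFBP3, the main IGF carrier of blood, rose by 0.31 and 0.55, but in ZM11-kd1 it reversed to -0.04 with library totals alone. IGFBP1 and IGFBP6 were at 1.07 CPM or less in the mean of every group. IGFBP1 was called lower in ZM11-kd2, at -1.14 (adjusted p = 0.0457, edgeR), a call lost without any one library, at -1.43 to -0.90, and in DESeq2 (adjusted p = 0.108). IGFBP6 was called higher in ZM11-kd1, at 2.02 (adjusted p = 0.00922, edgeR), but not after adjustment for the GC content and length of genes, at 0.90, or without control replicate 1, at 1.69, or ZM11-kd1 replicate 1, at 1.97.

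Among FGF ligands, 10 of 18 genes were tested, with 7 higher and 0 lower in ZM11-kd1 and 5 higher and 1 lower in ZM11-kd2. Of all genes tested, 38.2% were higher and 39.8% lower in ZM11-kd1, and 36.5% and 36.9% in ZM11-kd2, and the share of these ligands called in either direction, 70.0% and 60.0%, was below the 78.0% and 73.4% of all genes. In ZM11-kd1, 4 were called with at least 10 counts required in every library, and 5 with library totals alone or after adjustment for GC content and length. In ZM11-kd2, 4 were called with that minimum, without control replicate 1 or without ZM11-kd2 replicate 2. FGF2, basic FGF, was at 2.17 and 1.35 CPM in control, 3.27 and 2.94 in ZM11-kd1 and 9.27 and 8.93 in ZM11-kd2. Its log2 fold change was 0.82 (standard error 0.23, adjusted p = 0.0041, edgeR) in ZM11-kd1, where it was 0.47 with library totals alone (adjusted p = 0.0731) and 0.52 without control replicate 2 (adjusted p = 0.0708), and 2.37 (standard error 0.20, adjusted p = 7.06e-08) in ZM11-kd2. FGF17 had log2 fold changes of 0.61 in ZM11-kd1, which reversed to -0.04 after adjustment for the GC content and length of genes, and -0.55 in ZM11-kd2. FGF22 had 1.52 (adjusted p = 8.16e-06, edgeR) and 0.60 (adjusted p = 0.0231), which were 0.46 and 0.48 after that adjustment and no longer called. The second was also lost without control replicate 1, at 0.52, or ZM11-kd2 replicate 2, at 0.32. FGF5, at 1.49 and 2.60, and FGF18, at 2.62 and 2.42, rose in both from under 0.4 CPM. FGF8 was called higher in both, at 1.64 in each, with a mean of at most 0.723 CPM. Both calls were lost without control replicate 1, at 1.14 in each. The ZM11-kd1 call was also lost without its replicate 2, and the ZM11-kd2 call without its replicate 2, at 1.43. In ZM11-kd1, FGF8 was 0.39 after adjustment for the GC content and length of genes (adjusted p = 0.567, edgeR). With library totals alone it was 1.285 there (adjusted p = 0.0595, edgeR). FGF10 was called in ZM11-kd1, where it was at 1.22 CPM. FGF7, FGF9 and FGF21 were not called in either knockdown. The 8 FGF genes not tested had at most 6 counts in a library.

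Genes that process these ligands were also measured, in a list of 8 with HGF, of which 6 were higher and 2 lower in ZM11-kd1 and 6 higher and 1 lower in ZM11-kd2. Of all genes tested, 38.2% were higher and 39.8% lower in ZM11-kd1, and 36.5% and 36.9% in ZM11-kd2. With a change of at least 1.5-fold also required, 5 and 4 of the 8 were called, against 59.7% and 51.1%. With library totals alone 4 were called in ZM11-kd2. SPINT2, one of the 6 higher in ZM11-kd1, was at 0.13 there (adjusted p = 0.0361, edgeR), a call lost without any one control or ZM11-kd1 library, at 0.13 to 0.14, and it turned to -0.22 with library totals alone. HGF is secreted as an inactive precursor that HGFAC, ST14 (matriptase) and HPN (hepsin) cut and that SPINT1 and SPINT2 protect. HPN was at 30.4 and 34.0 CPM in control, 99.1 and 103.5 in ZM11-kd1 and 41.0 and 34.1 in ZM11-kd2, and its log2 fold change of 1.65 in ZM11-kd1 (standard error 0.09, adjusted p = 2e-10, edgeR) exceeded the replicate spread. In ZM11-kd2 it was 0.22 (adjusted p = 0.0334, edgeR) and not called under 7 alternatives, being 0.14 without control replicate 1 and 0.08 without ZM11-kd2 replicate 1. SPINT1 rose in both, by 1.53 and 0.70, and HGFAC rose by 2.26 and 1.63 from under 1 CPM. ST14 fell in ZM11-kd2, at -0.74 (adjusted p = 3.03e-08, edgeR), and its rise of 0.26 in ZM11-kd1 reversed to -0.27 after adjustment for the GC content and length of genes. ADAM17, which sheds EGFR ligands, fell by 1.03 on the log2 scale in ZM11-kd1. In ZM11-kd2 it was called higher at 0.20 (adjusted p = 0.0334, edgeR), a call lost with library totals alone, at 0.03, and without ZM11-kd2 replicate 2, at 0.08, or either control library, at 0.20 and 0.21. ADAM10, another sheddase, had a log2 fold change of -0.47 in ZM11-kd1, which turned to 0.33 after adjustment for the GC content and length of genes. In ZM11-kd2 it was 0.08 (adjusted p = 0.215, edgeR). After that adjustment the ZM11-kd2 value was 0.36 and called higher (adjusted p = 5.66e-06, edgeR), whereas with library totals alone it was -0.091.

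Downstream of the receptors, calls went both ways. Of 17 adaptors and docking proteins, 6 were higher and 8 lower in ZM11-kd1, and 5 higher and 7 lower in ZM11-kd2, and without control replicate 1 only 7 genes were called in ZM11-kd2. The share called was 82.4% and 70.6%, against 78.0% and 73.4% of all genes tested. With a change of at least 1.5-fold also required, 6 of the 17 were called in ZM11-kd1 and 3 in ZM11-kd2, below the 59.7% and 51.1% of all genes. GRB2, the adaptor that brings SOS to phosphorylated receptors, was at 144 and 147 CPM in control, 281 and 270 in ZM11-kd1 and 311 and 313 in ZM11-kd2. It rose by 0.92 (standard error 0.05, adjusted p = 4.1e-10, edgeR) and 1.10 (standard error 0.05, adjusted p = 1.11e-10) on the log2 scale. GRB14, an inhibitor of the insulin receptor, fell in both, with log2 fold changes of -2.0 and -2.65. FRS2, the docking protein of FGF receptors, fell by 1.12 in ZM11-kd1 and by 0.38 in ZM11-kd2. SOS1, the RAS activator, fell by 1.26 and by 0.37, the latter at 0.001 after adjustment for the GC content and length of genes. PTPN11, the phosphatase SHP2, had the highest mean level of this list and changed in opposite directions, at -0.53 and 0.18, although the first turned to 0.13 after that adjustment and the second was not called without control replicate 1, at 0.18 with an adjusted p of 0.0624, or with library totals alone, at 0.01.

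Of 19 feedback inhibitors and ubiquitin ligases, 4 were higher and 11 lower in ZM11-kd1, and 6 were higher and 6 lower in ZM11-kd2. The share called, 78.9% and 63.2%, was close to or below the 78.0% and 73.4% of all genes tested, and at 1.5-fold or more 13 were called in ZM11-kd1 and 6 in ZM11-kd2, against 59.7% and 51.1%. ERRFI1, which binds and inhibits EGFR, was at 227 and 233 CPM in control, 84.9 and 81.9 in ZM11-kd1 and 177 and 187 in ZM11-kd2, with log2 fold changes of -1.47 (adjusted p = 7.37e-12, edgeR) and -0.34 (adjusted p = 4.25e-05). LRIG3, a membrane protein of a family that restrains ERBB receptors, fell by 1.03 and by 1.72 on the log2 scale, and CBLC, a ubiquitin ligase, fell by 1.15 and by 2.38. DUSP4, a phosphatase of ERK, rose by 0.77 and 1.24, and SPRED3, a RAS pathway inhibitor, by 1.87 and 1.29.

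Of 28 genes of the RAS, ERK, PI3K and AKT pathway, 25 were tested, with 8 higher and 14 lower in ZM11-kd1, and 12 higher and 5 lower in ZM11-kd2. In total 88.0% and 68.0% of them were called, against 78.0% and 73.4% of all genes tested. With a change of at least 1.5-fold also required, 12 of the 25 were called in ZM11-kd1 and 7 in ZM11-kd2, both below the 59.7% and 51.1% of all genes. Against ZM11-kd1, 20 of the 25 were higher and 3 lower in ZM11-kd2, against 34.9% and 33.8% of all genes tested, and 15 differed by at least 1.5-fold, against 44.8%. HRAS rose in both knockdowns, by 1.62 and 1.06 on the log2 scale, as did the transcription factors STAT3, by 0.72 and 1.57, and FOXO1, by 0.87 and 1.59. MTOR, the growth-regulating kinase, was at 96.7 and 92.3 CPM in control, 31.0 and 31.1 in ZM11-kd1 and 49.2 and 56.6 in ZM11-kd2, with log2 fold changes of -1.61 (adjusted p = 6.2e-11, edgeR) and -0.84 (adjusted p = 7.01e-08). AKT2, the gene of this list with the highest mean level, had log2 fold changes of 0.15 and 0.07, which turned to -0.20 and -0.10 with library totals alone. Its call in ZM11-kd1 was lost without any single control or ZM11-kd1 library, at 0.14 to 0.17. In ZM11-kd2, AKT2 was 0.46 and called higher after adjustment for the GC content and length of genes (adjusted p = 1.59e-07, edgeR). Without ZM11-kd2 replicate 1 it was 0.12 there.

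**Figure D4:**
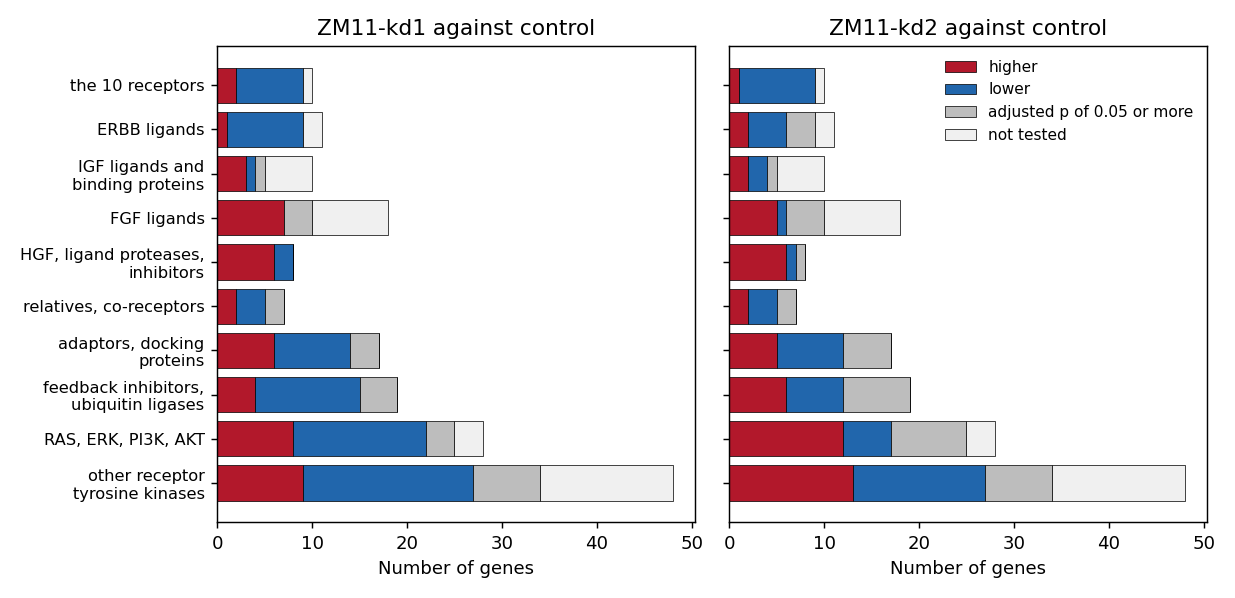
Number of genes in the receptor set and in each pathway list that were higher, lower or at an adjusted p of 0.05 or more in edgeR, or not tested, for each knockdown against control. Of the 10 receptors 7 were lower in ZM11-kd1 and 8 in ZM11-kd2, and the other lists hold calls in both directions except FGF ligands in ZM11-kd1, with 0 lower.

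The 10 receptors stood beside 48 other receptor tyrosine kinases, of which 34 were tested. In ZM11-kd1, 9 of these were higher and 18 lower, with a median log2 fold change of -0.72, and in ZM11-kd2, 13 were higher and 14 lower, with a median of 0.02. The share called was 79.4% in each, near the 78.0% and 73.4% of all genes tested. Of the 34, 11 were lower in both knockdowns, 8 higher in both and 3 called in opposite directions, against 27.0%, 25.6% and 9.10% of all genes tested, and whether these shares differ from those of the 9 tested receptors was not tested. MST1R, the closest relative of MET, was at 9.33 and 8.37 CPM in control, 4.39 and 3.51 in ZM11-kd1 and 1.09 and 1.66 in ZM11-kd2. It fell, as MET did, in both knockdowns, with log2 fold changes of -1.16 (adjusted p = 4.19e-05, edgeR) and -2.68 (adjusted p = 3.14e-08). EPHA10, a kinase-dead ephrin receptor, fell by 1.62 and by 2.90, and PTK7, a kinase-dead receptor of the WNT pathway, fell by 1.45 and by 1.78. KIT, the receptor for stem cell factor, rose in both, by 1.93 and 1.91. DDR1, a collagen receptor with the highest mean level of this list, was at 0.14 in ZM11-kd1 (adjusted p = 0.102, edgeR), turned to -0.22 there with library totals alone, and rose by 0.47 in ZM11-kd2. Of 7 family relatives and co-receptors, ERBB4 among them, 2 were higher and 3 lower in each knockdown, so that 71.4% were called, against 78.0% and 73.4% of all genes tested. IGF2R, the clearance receptor for IGF2 and no tyrosine kinase, fell by 1.04 in ZM11-kd1. In ZM11-kd2 it was at -0.13 (adjusted p = 0.0788, edgeR), and its call there depended on the setting. It was lower at -0.30 with library totals alone (adjusted p = 0.000879, edgeR) and at -0.17 with at least 10 counts in every library (adjusted p = 0.026). Without ZM11-kd2 replicate 2 it was -0.23. After adjustment for the GC content and length of genes it turned to 0.34 and was called higher (adjusted p = 9.87e-06, edgeR).

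The nearest genes on the chromosome were compared with each receptor. Of the 36 nearest tested neighbours, 2 on each side of each tested receptor, 15 (41.7%) had the same call as their receptor in ZM11-kd1, 17 (47.2%) in ZM11-kd2 and 13 (36.1%) between the knockdowns. These shares lie near the 38.2% higher and 39.8% lower of all genes tested in ZM11-kd1, the 36.5% and 36.9% in ZM11-kd2 and the 34.9% and 33.8% between the knockdowns, except that the ZM11-kd2 share was above them, which was not tested. All 4 neighbours of ERBB2, namely PGAP3, PNMT, MIEN1 and GRB7, were higher with it in ZM11-kd1, and of these MIEN1 was higher in ZM11-kd2. All 4 neighbours of FGFR1 and all 4 of FGFR3 were lower with their receptor in ZM11-kd2. In ZM11-kd1, where FGFR1 rose, none of its 4 neighbours was called higher, and NSD3, at -0.62, and TACC1, at -1.55, were called lower. Beside MET, CAPZA2 rose by 1.14 and 0.94 and ST7 by 0.87 and 1.32, while CAV1, on the other side, fell by 1.96 and by 2.86. Beside FGFR3, TACC3 fell by 4.07 and by 3.5 on the log2 scale. GRB7, which begins 7.5 kilobases past ERBB2, rose by 0.94 in ZM11-kd1 and fell by 0.20 in ZM11-kd2. None of the receptors had counts equal to those of another gene in every library.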

How the data were processed

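RNA-seq of 22Rv1 cells gave 6 libraries, 2 per group. Raw counts per gene were deposited by the authors, per the labels made with STAR 2.7.9a and HTSeq 0.13.5 on hg38 after FastQC 0.11.9, which are versions from the submitters' processing notes. The counting settings, strand use and annotation are not given in the sources used here. Gene locations came from GENCODE 44 by symbol, with 32852 of 35322 matched. Genes were filtered with filterByExpr, scaled by TMM and fitted over all 3 groups with the quasi-likelihood test of edgeR 4.0.16 in R 4.3.3, with 3 residual degrees of freedom. Benjamini-Hochberg adjustment covered 16510 genes, and an adjusted p under 0.05 was a call. Standard errors were the log2 fold change over the square root of F. The script was tested on simulated data in which few genes changed, so that test does not cover changes as broad as those called here. Alternatives used DESeq2 1.42.0, other scalings and filters, a lowess adjustment for GC content and length (span 0.3), a replicate block and leaving out each library. Named genes were all receptors, all tested ligands, and in each other list the 4 genes with the largest mean change among those whose average log2 CPM was 1 or more and whose calls had the same sign in each knockdown, plus the gene with the highest level. The receptors and lists were chosen with earlier results of these data known. Promoter windows came from RefSeq on GRCh38.p14. Intervals and p-values rest on 2 libraries per group, and the fit shared its estimate of the spread over the 3 groups. The chi-square of replicate counts per degree of freedom was 2.34 in control, 3.86 in ZM11-kd1 and 10.05 in ZM11-kd2. The part of this unequal spread in the p-values was not tested.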

Additional observations from a re-analysis of the deposited data

Results flagged for a closer look

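For 8 of the 9 tested receptors, the effects of ZM11-kd1 and ZM11-kd2 against the same control differed from each other by edgeR's quasi-likelihood test of ZM11-kd2 against ZM11-kd1, as did 68.8% of all genes tested. The log2 difference was 1.63 for EGFR, 1.77 for FGFR4, 0.52 for INSR, 0.33 for IGF1R and 0.19 for ERBB3, all higher in ZM11-kd2, though ERBB3 was at 0.03 and not called (adjusted p = 0.624, edgeR) after adjustment for GC content and length. It was -1.04 for ERBB2, -2.98 for FGFR1 and -0.19 for FGFR3, all lower in ZM11-kd2, though FGFR3 turned to 0.31 after that adjustment. FGFR1 was the only tested receptor called in opposite directions against control. ZMYND11 itself differed too, the ZM11-kd2 level being lower with a log2 change of -0.28 (adjusted p = 0.00265, edgeR), which was -0.10 and not called (adjusted p = 0.259) with library totals alone. The part of the ZMYND11 level in these differences was not tested.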

How the results depend on the processing

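Against control, the receptors kept their direction and call under all alternatives except FGFR1 in ZM11-kd2, at -0.14 after adjustment for GC content and length. Between the knockdowns 8 receptors were called (68.8% of all genes), and 4 when a 1.5-fold change was also required (44.8%). FGFR3 there turned to 0.31 after that adjustment, and ERBB3 was 0.03 and not called. Over all receptor fold changes and alternatives, 361 values kept direction and side of the threshold, 12 lost the call, 4 gained it and 1 reversed. The replicate numbers did not pair the libraries (correlations of deviations 0.0062, -0.0264 and -0.044), and with the replicate block 9 receptors were called in each comparison, MET between the knockdowns reaching 0.44 (adjusted p = 0.0491, edgeR), against 0.15 (adjusted p = 0.501) after the GC content and length adjustment. The cause of the following reversals was not tested.

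With library totals alone, ZM11-kd1 values turned to -0.043 for IGFBP3, -0.092 for ST14, -0.22 for SPINT2, -0.20 for AKT2 and -0.22 for DDR1, and ZM11-kd2 values to -0.12 for AREG, -0.17 for NRG3, -0.091 for ADAM10 and -0.10 for AKT2. After adjustment for GC content and length, ZM11-kd1 values turned to -0.041 for FGF17, -0.27 for ST14, -0.053 for SPINT2, 0.33 for ADAM10 and 0.13 for PTPN11, and ZM11-kd2 values to -0.22 for AREG, -0.031 for FGF21, 0.34 for IGF2R and 0.0010 for SOS1. NRG3 in ZM11-kd2 was -0.037 with at least 10 counts in every library and -0.0085 with only the groups compared. Leaving out each library, the ZM11-kd2 value ranged from -0.62 to 0.041 for EGF, -0.12 to 0.12 for NRG3, -0.14 to 0.88 for FGF7, -1.29 to 0.29 for FGF9 and -0.20 to 0.69 for FGF21, none of them called. With 2 libraries per group and 3 residual degrees of freedom, a difference at FGFR2, with at most 5 counts in a library, was not detectable.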
